A study of Mus musculus with 3 samples.

Results

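The granin family was followed here through mouse islet cells after blockade of the insulin receptor. Its 7 members were taken from a fixed list of granin genes: Chga, Chgb, Scg2, Scg3, Scg5, Vgf and Pcsk1n. All 7 were present among the 31053 genes of the count table. Single-cell RNA was measured with droplet-based 10x Genomics 3′ chemistry in islets of male C57Bl6/J mice aged 7 to 8 months. The mice were retired breeders, and their islets were cultured overnight before dissociation. The S961 library came from mice with implanted pumps that released S961 for 2 weeks, at a dose the labels give as 20 nM per week. S961 is a peptide that blocks the insulin receptor. The recovered library came from S961 mice whose pumps had been taken out. The control library came from mice with pumps that held no S961. Each group had 1 library, and neither the number of mice in it nor the length of recovery is given in the labels. Every difference below is therefore one between libraries, no test across mice was possible, and all intervals cover counting error only.

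Granins are acidic proteins of the regulated secretory pathway. They aggregate in the trans-Golgi network, help to form dense-core granules, and are cut into smaller peptides that leave the cell with its hormone. In islets they are packed with insulin, glucagon or somatostatin. Chromogranin A (Chga), chromogranin B (Chgb), secretogranin II (Scg2) and secretogranin III (Scg3) are linked to granule formation and cargo sorting, Scg5 encodes a chaperone of the convertase made by Pcsk2, Pcsk1n encodes proSAAS, an inhibitor of the convertase made by Pcsk1, and Vgf is a precursor of secreted peptides.

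The S961, recovered and control libraries held 47651767, 40102058 and 38265969 unique molecular identifiers (UMIs) over 5905, 7805 and 10880 barcodes. After filters on genes and mitochondrial UMIs and removal of called doublets, 3430, 3513 and 4267 cells were analysed in that order. Libraries shared 11 to 29 cell barcodes in pairs, at most 0.372% of the smaller library. Cells were grouped by clustering with the granins left out, and classes were named from marker genes. Beta-like cells (insulin) numbered 1494 in S961, 2071 in recovered and 2932 in control. Alpha-like cells (glucagon) numbered 463, 283 and 324, and delta-like cells (somatostatin) 347, 228 and 365, in the same order. In every library 9 of 9 beta, 8 of 8 alpha and 5 of 5 delta markers carried UMIs in their own class. This does not separate the classes. The 9 beta markers also carried UMIs in alpha-like and delta-like cells, and the 8 alpha markers in beta-like and delta-like cells. Among insulin, glucagon, somatostatin and pancreatic polypeptide, insulin was highest in 99.4% of S961, 99.5% of recovered and 99.7% of control beta-like cells. Glucagon was highest in 70.0%, 73.5% and 62.7% of alpha-like cells, and somatostatin in 93.4%, 73.7% and 76.2% of delta-like cells, in that order. The doublet caller marked 77 cells in S961, 24 in recovered and 3 in control, so doublets may remain in recovered and control.

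The 7 genes lie on 6 chromosomes of mm10 in GENCODE M21. Chga is at chr12:102554969-102565028 (plus strand), Chgb at chr2:132781278-132795079 (plus), Scg2 at chr1:79434669-79440120 (minus) and Scg3 at chr9:75643189-75684056 (minus). Scg5 is at chr2:113776362-113829121 (minus), Vgf at chr5:137026392-137033351 (plus) and Pcsk1n at chrX:7919822-7924410 (plus). All are protein-coding, and none overlaps another annotated gene on its own strand. Scg3 overlaps Gm37871 and Pcsk1n overlaps Eras on the opposite strand, and whether the counting used strand is not given in the sources used here. RefSeq promoters of build GRCm38.p6 (250 bases before to 50 after the start) matched 6 of the 7 by symbol, all but Vgf. They were searched on both strands for the cAMP response element TGACGTCA, a palindrome bound by CREB-family factors, and for the shorter TGACGT, which the full element contains. The full element was found in Chgb and Scg2 only among the 6, starting 72 and 68 bases before the start. It occurs in 1.79% of the 32851 promoters of the table, and TGACGT in 7.51%. Chga held the shorter motif 44 bases before the start, Scg5 held it at 2 places, the first 175 bases before the start, and Scg3 and Pcsk1n held neither. A match describes the letters of the window and shows neither binding nor use. Stretches of 30 bases around the motif are shown for Chgb and Scg2, the members with the largest differences in beta-like cells, and for Chga. They are read 5′ to 3′ on the gene's strand with the motif in capitals, at chr2:132781559-132781588 (plus), chr1:79440076-79440105 (minus) and chr12:102554886-102554915 (plus).
Chgb: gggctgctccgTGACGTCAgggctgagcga
Scg2: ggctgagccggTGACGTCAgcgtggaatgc
Chga: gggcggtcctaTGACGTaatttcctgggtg
GENCODE M21 places the Chgb and Scg2 stretches within a UTR exon of the same gene, and no annotated feature on that strand covers the Chga stretch.

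The first question was how much of each granin the endocrine classes carry. Levels are counts per 1e6 UMIs (CPM), from the pooled UMIs of all cells of 1 class and library. Because 3′ chemistry counts 1 end per captured molecule, levels were not divided by gene length. All 7 members were detected in all 3 endocrine classes, and each class had its own mix. Chga and Scg3 were highest in beta-like cells, Pcsk1n and Scg5 in alpha-like cells, and Chgb and Scg2 were low in alpha-like cells.

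Chga was at 5311 CPM in S961, 5145 in recovered and 4209 in control beta-like cells. It was at 3098, 3945 and 3545 CPM in alpha-like cells and at 2416, 2961 and 2558 CPM in delta-like cells, in the same library order. The ranges over the 3 libraries did not overlap, so the order was beta, alpha, delta. The gap to alpha-like cells depended on cells of that class led by another hormone: in those with Gcg highest Chga was at 3500 CPM in S961, 4264 in recovered and 4010 in control, which overlaps the beta-like range, although beta-like cells were higher within each library. Scg3 was at 1031, 880 and 758 CPM in beta-like cells, at 666, 698 and 642 CPM in delta-like cells, and at 481, 492 and 440 CPM in alpha-like cells. Its ranges were also separate.

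Chgb was at 4407 CPM in S961, 3125 in recovered and 2931 in control delta-like cells, and at 3571, 1774 and 1709 CPM in beta-like cells. It was at 1045, 920 and 1017 CPM in alpha-like cells, below every value of the other classes. Scg2 was at 3645, 3076 and 2776 CPM in delta-like cells, against 4756, 2398 and 2280 CPM in beta-like and 1246, 964 and 1200 CPM in alpha-like cells. For both genes the delta-like and beta-like ranges overlapped. Within each library Chgb was higher in delta-like than in beta-like cells, by log2 ratios of 0.30 in S961, 0.82 in recovered and 0.78 in control. The order of Scg2 differed between libraries. Scg2 was higher in delta-like than in beta-like cells by a log2 ratio of 0.36 (95% interval 0.32 to 0.40) in recovered and 0.28 (0.24 to 0.32) in control, and lower by −0.38 (−0.41 to −0.36) in S961.

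Pcsk1n was at 3120 CPM in S961, 3491 in recovered and 2836 in control alpha-like cells. Delta-like cells had 2276, 1803 and 1584 CPM of it and beta-like cells 1545, 1331 and 1168 CPM, so its order was alpha, delta, beta with separate ranges. Scg5 was at 1431, 1486 and 1486 CPM in alpha-like cells, above both other classes. It was at 1228, 1201 and 1016 CPM in delta-like and 1200, 864 and 849 CPM in beta-like cells, whose ranges overlapped.

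Vgf was the rarest member. It was at 93.8 CPM in S961, 75 in recovered and 94.2 in control beta-like cells, at 75.5, 55.2 and 49.3 CPM in alpha-like cells, and at 19.4, 32.7 and 51.3 CPM in delta-like cells. Neighbouring classes overlapped. With each cell thinned to 2000 UMIs, 12.9%, 12.1% and 14.8% of beta-like cells had a Vgf UMI in S961, recovered and control, against 44.9%, 38.7% and 38.2% unthinned. The 7 genes together made up 17508 CPM of beta-like UMIs in S961, 12467 in recovered and 11068 in control. Chga gave 30.3%, 41.3% and 38.0% of those granin UMIs, while Scg2 gave 27.2%, 19.2% and 20.6%.

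**Figure D1:**
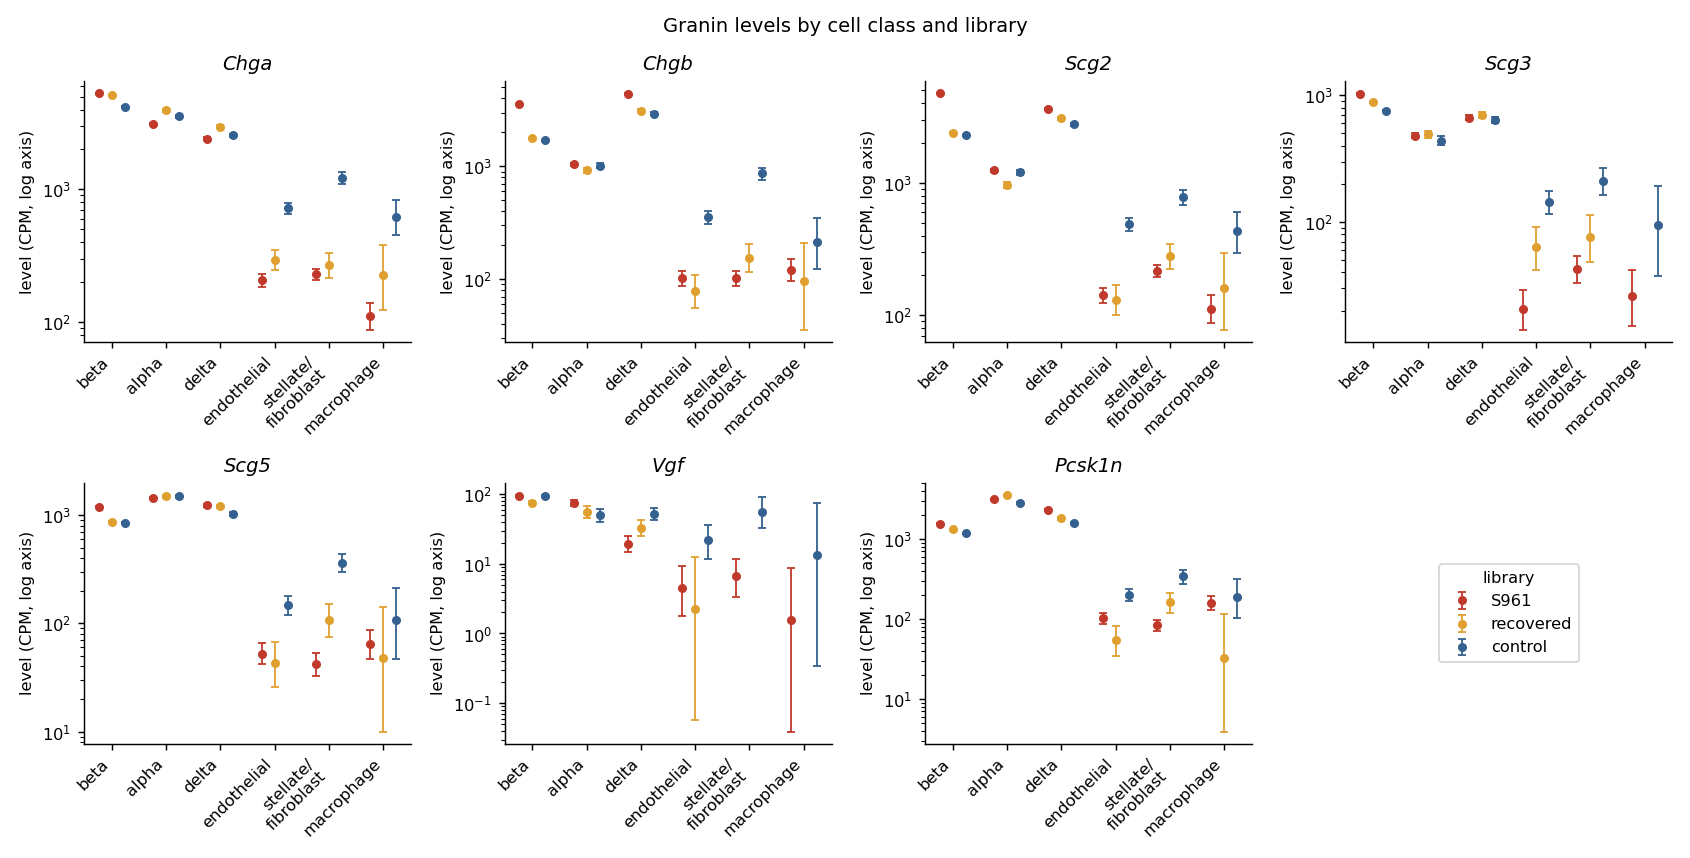
Level of each granin (CPM, log axis) in 6 cell classes for the S961 (red), recovered (yellow) and control (blue) libraries. Points are sums over the cells of a class and bars are exact Poisson 95% intervals; a point with no UMI is not drawn. Chga is highest in beta-like cells and Pcsk1n in alpha-like cells, and in endothelial-like, stellate or fibroblast-like and macrophage-like cells the control points lie highest for most genes.

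Granin RNA was also found in cells that should lack it, and its amount differed between libraries. Endothelial-like, stellate or fibroblast-like and macrophage-like cells were pooled as a background. Chga there was at 199 CPM in S961, 279 in recovered and 859 in control. This is 3.75%, 5.43% and 20.4% of its beta-like level. Over the 7 members the background was 2.94% to 6.67% of the beta-like level in S961, 1.63% to 7.93% in recovered and 20.4% to 33.2% in control. In control it came to 48.8% of the alpha-like level for Chgb, 47.4% for Scg2 and 63.4% for Vgf, and to 60.9% of the delta-like level for Vgf (31.3 against 51.3 CPM). The corresponding Vgf background was 4.90 CPM in S961 and 1.22 CPM, from 1 UMI, in recovered. The levels of Vgf in control alpha-like and delta-like cells, and of Chgb and Scg2 in control alpha-like cells, are therefore to be read against this background. The percentages do not give the part of those levels that is background, which was not measured. Median depth in control was 3312 UMIs in endothelial-like, 2169.5 in stellate or fibroblast-like and 3038.5 in macrophage-like cells. It was 4782 in alpha-like and 4510 in delta-like cells. Insulin took 5.74%, 10.4%, 5.73%, 4.14% and 8.17% of UMIs in these classes, in that order.

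Granins and insulin were both found in these classes. Granin UMIs per 100 insulin UMIs numbered 5.12 in S961, 3.75 in recovered and 3.67 in control stellate or fibroblast-like cells, against 5.25, 4.0 and 3.59 in beta-like cells. Endothelial-like cells had 7.97, 4.37 and 3.61, and macrophage-like cells 5.51, 2.53 and 2.90, from 387, 35 and 124 granin UMIs. Alpha-like cells had 110, 54.9 and 25.5, and delta-like cells 196, 17.0 and 14.1, so their granin content was far above what accompanies insulin at the beta-like ratio. With each cell thinned to 2000 UMIs, 9.14% of S961, 36.1% of recovered and 45.3% of control endothelial-like cells still had a Chga UMI, at median depths of 6038, 4306 and 3312 UMIs. In beta-like cells these shares were 98.8%, 99.6% and 99.7%. Among other classes, acinar-like cells held 925 CPM of summed granins in S961, 405 in recovered and 626 in control. T-like or NK-like cells held 1203, 1127 and 4215 CPM and B-like cells 6085, 2974 and 5565 CPM, the control values from 3 cells and 1 cell.

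**Figure D2:**
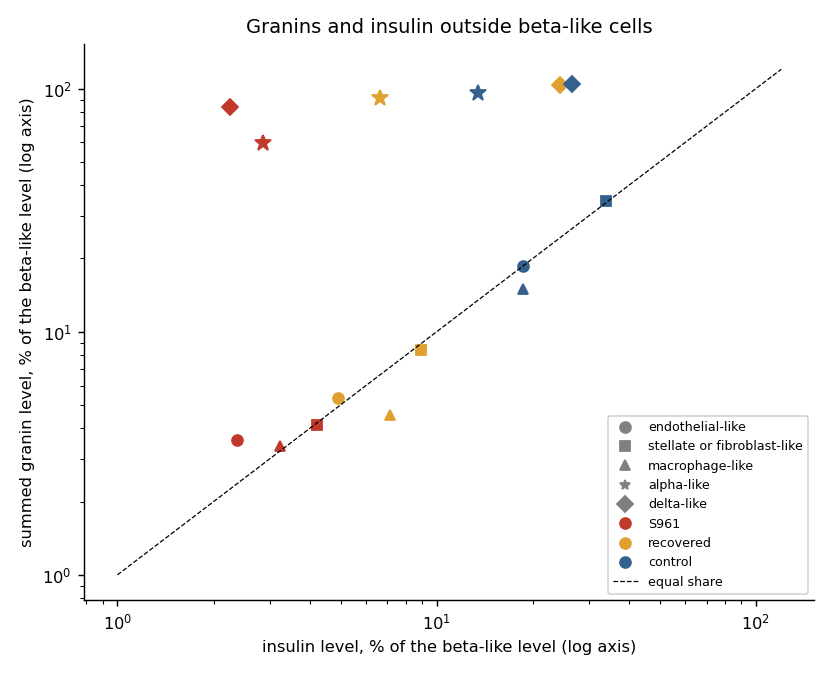
Summed granin level against insulin level of 5 cell classes, each as a percentage of the beta-like level of the same library (both log axes), for S961 (red), recovered (yellow) and control (blue). The dashed line marks equal percentages. Non-endocrine classes lie near the line, with the stellate or fibroblast-like class of control at 33.9% of the insulin and 34.6% of the granin level, whereas alpha-like and delta-like cells lie far above it.

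The main comparison was between beta-like cells of the S961 and control libraries. Chgb and Scg2 were the members that stood out, each at 2.09-fold. Chgb was at 3571 CPM in S961 against 1709 CPM in control, a log2 ratio of 1.06 (1.05 to 1.08). Scg2, the precursor of secretoneurin, was at 4756 against 2280 CPM, also 1.06 (1.05 to 1.08). They ranked 138 and 145 from the highest ratio among 11607 genes with at least 50 UMIs over both libraries. The other members differed less. Scg5 had a log2 ratio of 0.50 (0.47 to 0.53), Scg3 0.44 (0.42 to 0.47), Pcsk1n 0.40 (0.38 to 0.43) and Chga 0.34 (0.32 to 0.35). Vgf was at 93.8 CPM in S961 and 94.2 CPM in control, with an interval of the log2 ratio from −0.10 to 0.08.

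At a ratio of 1.5-fold, 2 of the 7 members were higher and 0 were lower in S961, where 6.07% of all genes tested were higher and 2.73% lower. The median log2 ratio of the members was 0.44 and that of all genes −0.02. The members were chosen with earlier results on Chgb and Scg2 known, so these counts describe the list and do not stand as separate support. Across the alternative settings tried, the Chgb ratio ranged from 0.92 to 1.08 and the Scg2 ratio from 1.003 to 1.08. Median UMIs per beta-like cell were 13949 in S961 and 7481 in control, and median mitochondrial shares 4.51% and 6.93%. The settings with cells thinned or held to 4 to 7% mitochondrial UMIs are among the alternatives that span these ranges.

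**Figure D3:**
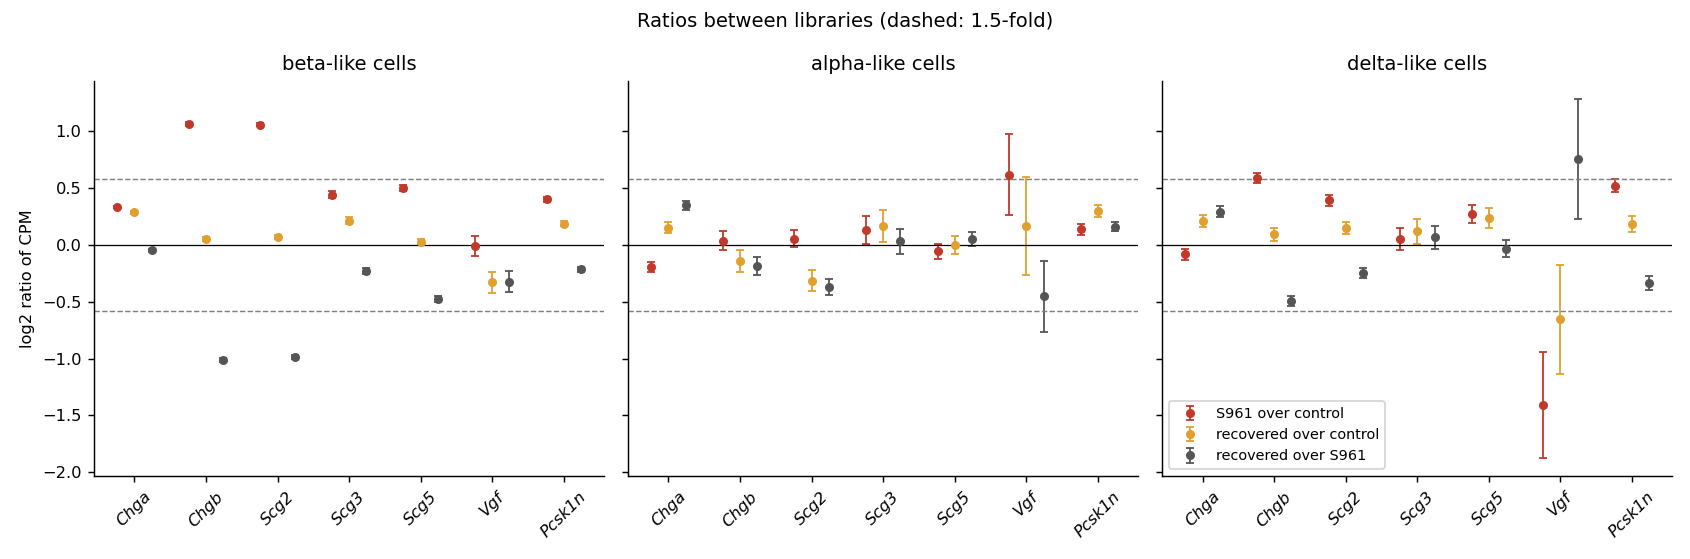
Log2 ratios of CPM for the 7 granins in beta-like, alpha-like and delta-like cells: S961 over control (red), recovered over control (yellow) and recovered over S961 (grey). Bars are exact 95% intervals for counting error, and dashed lines mark 1.5-fold. In beta-like cells Chgb and Scg2 are near 1.06 for S961 over control and near −1 for recovered over S961, and near 0 for recovered over control.

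The beta-like class joined 3 clusters whose shares differed between libraries. The first, led by genes such as Mlxipl and Ucn3, held 59.5% of S961, 57.1% of recovered and 42.7% of control beta-like cells. The second, led by Pdyn and Ttyh1, held 34.9%, 31.9% and 44.1%, and the third, led by the heat shock genes Hspa1a and Hspa1b, held 5.56%, 11% and 13.3%. Within the first cluster Chgb was at 3536 CPM in S961 against 1486 CPM in control, a log2 ratio of 1.2504 (1.22 to 1.28). Within the second its ratio was 0.91 (0.89 to 0.94) and within the third 1.26 (1.19 to 1.33). For Scg2 the ratios were 1.17 (1.15 to 1.196), 1.03 (1.01 to 1.05) and 0.74 (0.68 to 0.79). Both genes were thus higher in S961 than in control in each of these 3 clusters. A further insulin-rich cluster, led by Msln and Trh, was kept out of the class and lacked this difference. Its Chgb was at 667 CPM in S961 against 729 CPM in control, and its Scg2 at 3370 against 3181 CPM. Vgf, itself among the leading genes of the second cluster, was at 130 CPM in S961, 113 in recovered and 129 in control there. In the first cluster it was at 57.8, 47.0 and 45.3 CPM, with an S961 over control ratio of 0.35 (0.17 to 0.54) that the class as a whole did not show.

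The difference in Scg2 and Chgb ran through the distribution of cells. With each beta-like cell thinned to 2000 UMIs, 1418 S961, 2019 recovered and 2780 control cells were kept, and 76, 52 and 152 shallower cells were left out. The median cell had 8 Scg2 UMIs in S961, 4 in recovered and 4 in control. The lower quartile was 5 UMIs in S961, against an upper quartile of 6 in both other libraries. Chgb had a median of 5 UMIs in S961, 2 in recovered and 3 in control, and its 90th percentile was 14, 7 and 7 UMIs. Chga medians were 9, 9 and 8 UMIs. A Chgb UMI was found in 96.3% of thinned S961 cells, 88.0% of recovered and 90.2% of control cells.

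**Figure D4:**
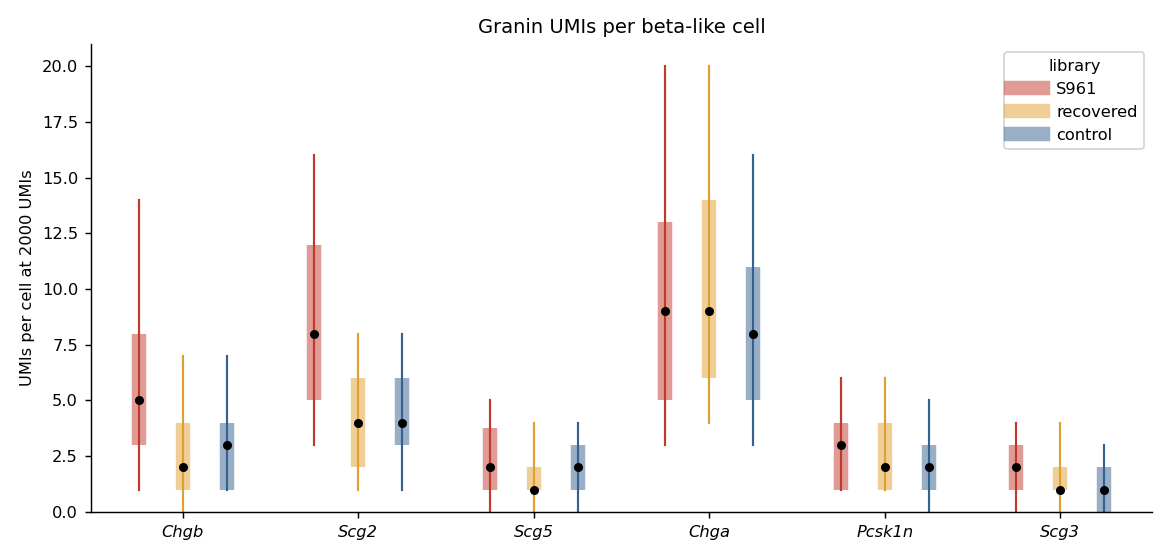
UMIs per beta-like cell after thinning each cell to 2000 UMIs, for 6 granins in S961 (red), recovered (yellow) and control (blue). Dots are medians, thick bars run from the 25th to the 75th percentile and thin lines from the 10th to the 90th. The S961 bars of Scg2 (5 to 12 UMIs) and Chgb (3 to 8) reach higher than those of the other libraries and overlap them in part, while the Chga bars overlap broadly.

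The second question was what remained after the pumps had been removed. In beta-like cells Chgb and Scg2 were close to control. Chgb was at 1774 CPM in recovered and 1709 CPM in control, a log2 ratio of 0.05 (0.03 to 0.07). Scg2 was at 2398 and 2280 CPM, a ratio of 0.07 (0.06 to 0.09). The Chgb ratio lay between −0.06 and 0.13 under the alternative settings, so it had no fixed direction. Chga was the member with the largest positive ratio, at 5145 CPM in recovered against 4209 CPM in control (0.29, 0.28 to 0.30). Scg3 (0.22) and Pcsk1n (0.19) had smaller positive ratios, Scg5 was at 0.03 (−0.003 to 0.05), and Vgf was lower at 75 against 94.2 CPM (−0.33, −0.42 to −0.24). None of the 7 passed 1.5-fold, where 3.2% of 11591 genes were higher and 1.12% lower.

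Against S961, recovered beta-like cells had lower Chgb, at 1774 CPM against 3571 CPM (−1.01, −1.03 to −0.99), and lower Scg2, at 2398 against 4756 CPM (−0.99, −1.003 to −0.97). Scg5 was next, at 864 against 1200 CPM (−0.47, −0.50 to −0.45). Chga was at 5145 and 5311 CPM (−0.05, −0.06 to −0.03). In this comparison 2 of 7 members were lower and 0 higher at 1.5-fold, against 3.41% of 11661 genes lower and 3.41% higher. Each comparison shares a library with both others, so these ratios are not separate observations.

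Other granule genes were given from a list of 30 processing enzymes, granule membrane proteins and exocytosis genes, of which 29 were measured in beta-like cells and Slc18a2 was not. In S961 against control 1 was higher and 2 were lower at 1.5-fold, with a median log2 ratio of −0.06. This is to be read beside 6.07% of all genes higher and 2.73% lower, and a median of −0.02. Pam, which amidates peptides, was at 618 against 369 CPM (0.74, 0.70 to 0.78). Cpe, the carboxypeptidase that trims prohormones, was at 1593 against 1083 CPM (0.56), and the chaperone Clu at 98.6 against 67.6 CPM (0.55). The lowest ratios were those of Sytl4, which encodes the granule docking protein granuphilin, at 53.4 against 112 CPM (−1.06, −1.16 to −0.96), and Slc30a8, the granule zinc transporter, at 172 against 266 CPM (−0.63, −0.69 to −0.57). Stx1a followed at −0.42 from few UMIs (−0.96 to 0.12).

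The convertase genes themselves did not pass 1.5-fold in any beta-like comparison. In S961 against control Pcsk1 was at 207 against 233 CPM (−0.17, −0.23 to −0.11) and Pcsk2 at 1446 against 1419 CPM (0.03, 0.01 to 0.05), beside 0.40 for Pcsk1n and 0.50 for Scg5. In recovered against control no list member passed 1.5-fold in either direction, where 3.2% of all genes were higher and 1.12% lower. The highest were Slc30a8 (0.42), Cpe (0.32) and Pcsk2 (0.29), and the lowest were Cpd (−0.53), Qpct (−0.23) and Stx1a (−0.18). In recovered against S961, with 3.41% of all genes in each direction, Sytl4 (1.14, 117 against 53.4 CPM) and Slc30a8 (1.05, 355 against 172 CPM) were higher, followed by Vamp2 (0.37). Pam (−0.73) and Cpd (−0.70) were lower, followed by Clu (−0.57).

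In alpha-like cells the intervals of the Chgb and Scg2 ratios between S961 and control included 0. Chgb was at 1045 CPM in S961 and 1017 CPM in control, a log2 ratio of 0.04 (−0.04 to 0.12), and Scg2 at 1246 and 1200 CPM (0.05, −0.02 to 0.13). Chga was lower, at 3098 against 3545 CPM (−0.19, −0.24 to −0.15), and Pcsk1n was at 3120 against 2836 CPM (0.14, 0.09 to 0.19). Vgf alone passed 1.5-fold, at 75.5 against 49.3 CPM (0.61, 0.26 to 0.98), where 6.29% of 8745 genes were higher and 2.13% lower. The Vgf background was 4.90 CPM in S961 and 31.3 CPM in control. That the beta-like and alpha-like ratios of a gene differ was not tested, since there is 1 library a group.

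In recovered against control, alpha-like Scg2 was at 964 against 1200 CPM (−0.31, −0.41 to −0.22) and Pcsk1n at 3491 against 2836 CPM (0.30, 0.25 to 0.35). None of the 7 passed 1.5-fold, where 4.36% of 6930 genes were higher and 2.41% lower. Against S961, recovered alpha-like cells had Chga at 3945 against 3098 CPM (0.35, 0.31 to 0.39), Scg2 at 964 against 1246 CPM (−0.37, −0.44 to −0.30) and Vgf at 55.2 against 75.5 CPM (−0.45, −0.77 to −0.14). Again 0 of 7 passed the fold, against 2.78% of 8926 genes higher and 4.04% lower. Insulin, a beta-cell product, took 0.95% of alpha-like UMIs in S961, 2.07% in recovered and 4.14% in control, and its part in these ratios was not tested.

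The alpha-like cluster also held cells with pancreatic polypeptide (Ppy) as their main hormone. Cells were called Ppy-led or Gcg-led when 1 of these hormones gave at least 80% of the insulin, Gcg, Sst and Ppy UMIs and at least 1% of all UMIs. There were 117 Ppy-led and 284 Gcg-led cells in S961, 50 and 185 in recovered, and 71 and 167 in control, with 11, 4 and 25 cells within 10 percentage points of the limit. Their granins differed in the same direction in all 3 libraries. Ppy-led cells had 1364 CPM of Chga in S961, 1448 in recovered and 1367 in control, against 3487, 4376 and 4059 CPM in Gcg-led cells. Pcsk1n was at 2060, 1836 and 1631 CPM in Ppy-led cells, against 3589, 4164 and 3508 CPM in Gcg-led cells.

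Chgb and Scg2 ran the other way. Chgb was at 1178, 1046 and 1100 CPM in Ppy-led cells of S961, recovered and control, against 680, 562 and 611 CPM in Gcg-led cells. Scg2 was at 1664, 1539 and 1616 CPM, against 937, 663 and 870 CPM. Vgf had few UMIs in Ppy-led cells, with 1 UMI in S961, 6 in recovered and 7 in control (0.79, 14.4 and 17.3 CPM), against 121, 75.2 and 83.9 CPM in Gcg-led cells. The log2 ratio of Ppy-led over Gcg-led cells for Vgf was −7.26 (−12.57 to −4.77) in S961, from that 1 UMI, −2.39 (−3.87 to −1.21) in recovered and −2.28 (−3.65 to −1.16) in control. Scg5 and Scg3 differed less, with ratios of 0.18, 0.30 and 0.23 for Scg5 and −0.23, −0.49 and −0.22 for Scg3 in S961, recovered and control. The Vgf background in non-endocrine cells was 4.90, 1.22 and 31.3 CPM, so Ppy-led Vgf lay below it in S961 and control. The Chgb background was 105, 110 and 496 CPM, the control value close to the Gcg-led level there. No background was taken off these levels.

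**Figure D5:**
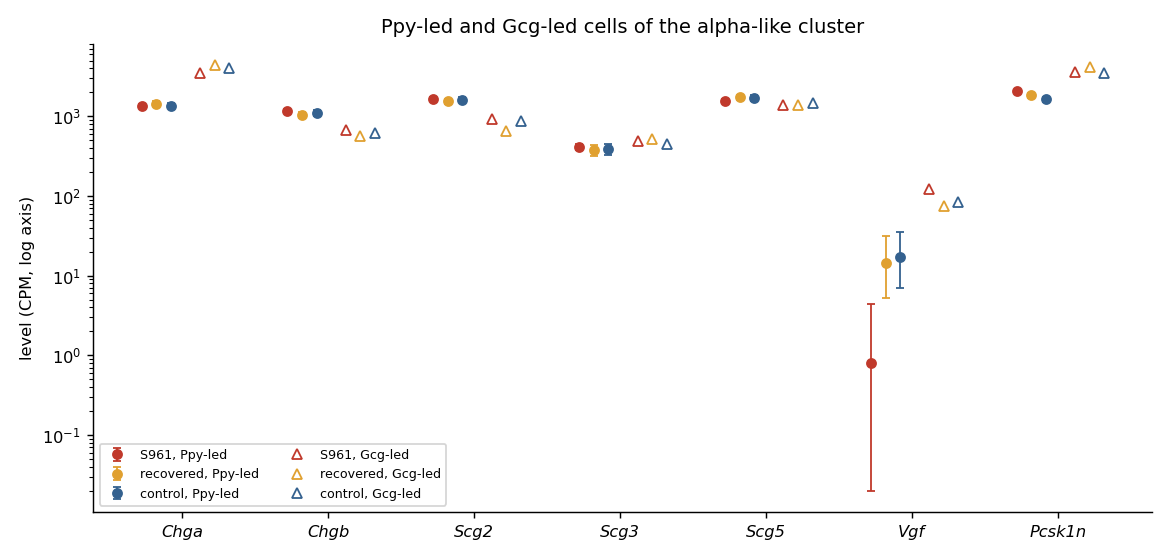
Granin levels (CPM, log axis) in Ppy-led cells (filled circles, with exact Poisson 95% intervals) and Gcg-led cells (open triangles, no interval drawn) of the alpha-like cluster in S961 (red), recovered (yellow) and control (blue). Chga, Pcsk1n and Vgf are lower and Chgb and Scg2 higher in Ppy-led than in Gcg-led cells in each library.

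Among cells of the alpha-like class in which Gcg was the highest hormone (324 in S961, 208 in recovered and 203 in control), several ratios differed from those of the whole class. Vgf was at 109 CPM in S961 against 74.1 CPM in control (0.56, 0.19 to 0.95), now short of 1.5-fold, and Chgb at 741 against 625 CPM (0.25, 0.12 to 0.38). Scg2 was at 993 against 892 CPM (0.16, 0.05 to 0.27), so here the Chgb and Scg2 intervals lay above 0. Pcsk1n was at 3523 against 3496 CPM (0.01, −0.04 to 0.07). In recovered against S961 Vgf passed 1.5-fold, at 67.9 against 109 CPM (−0.69, −1.03 to −0.35), which it had not done over the whole class, and Scg2 at 699 against 993 CPM (−0.51, −0.61 to −0.40).

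Delta-like cells carried more Chgb, Scg2 and Pcsk1n in S961 than in control, by less than the beta-like difference in Chgb and Scg2. Chgb was at 4407 against 2931 CPM (0.59, 0.54 to 0.63), at the edge of 1.5-fold. Across the alternative settings its ratio ranged from 0.24 to 0.59. Pcsk1n was at 2276 against 1584 CPM (0.52, 0.46 to 0.58), Scg2 at 3645 against 2776 CPM (0.39, 0.35 to 0.44) and Scg5 at 1228 against 1016 CPM (0.27, 0.20 to 0.35). Vgf was at 19.4 against 51.3 CPM (−1.41, −1.88 to −0.94), where the background was 4.90 CPM in S961 and 31.3 CPM in control. Of the 7 members 1 was higher and 1 lower at 1.5-fold, against 8.63% of 8613 genes higher and 2.75% lower.

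These classes were not equally pure. Sst was the highest hormone in 93.4% of S961, 73.7% of recovered and 76.2% of control delta-like cells, and insulin was the highest in 7 of 347, 48 of 228 and 79 of 365. The 9 beta markers summed to 60330 CPM in delta-like cells of S961, 142260 in recovered and 152487 in control. With the cells limited to those with Sst highest (324, 168 and 278), Chgb was at 4517 CPM in S961 against 3264 CPM in control (0.47, 0.42 to 0.52), and Pcsk1n at 2276 against 1618 CPM (0.49, 0.42 to 0.56). Scg2 was at 3678 against 3008 CPM (0.29, 0.24 to 0.34), and Vgf at 20.2 against 43.8 CPM (−1.12, −1.66 to −0.57). Chga had opposite signs in these selections: its ratio was −0.08 (−0.13 to −0.03) over all delta-like cells and 0.23 (0.16 to 0.30) over those with Sst highest, at 2235 against 1904 CPM.

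In recovered against control delta-like cells, Scg5 (0.24, 0.15 to 0.33) and Chga (0.21, 0.16 to 0.27) had the highest ratios and Vgf the lowest, at 32.7 against 51.3 CPM (−0.65, −1.14 to −0.17). Vgf was the 1 member lower at 1.5-fold and 0 were higher, against 2.18% of 7448 genes lower and 3.79% higher. The Vgf background in control, 31.3 CPM in non-endocrine cells, was 60.9% of the control delta-like level. With 4 to 7% or at most 10% mitochondrial UMIs 0 members were lower, and with classes from hormones alone 0 were lower and 3 higher. Against S961, recovered delta-like cells had Chgb at 3125 against 4407 CPM (−0.50, −0.54 to −0.45) and Pcsk1n at 1803 against 2276 CPM (−0.34, −0.40 to −0.28). Vgf was the 1 member higher at 1.5-fold (0.76, 0.23 to 1.29), where 2.89% of 8585 genes were higher and 6.07% lower, and 0 were lower. That direction did not hold among cells with Sst highest, where Vgf was at 11.1 CPM in recovered and 20.2 CPM in S961 (−0.86, −1.89 to 0.04).

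Across 15 profiles, the 5 classes with at least 20 cells in every library taken in each of the 3 libraries, the level of each granin was set against 5450 other genes. The classes were the 3 endocrine ones and endothelial-like and stellate or fibroblast-like cells, so a high correlation reflects first of all a gene of endocrine cells, and profiles of 1 library share its depth and its background. The gene most like Chgb was Scg2, and the reverse, at Pearson's r = 0.990 of log2(CPM + 1). Chgb was followed by Cyfip2 (0.978) and Atp1b1 (0.978), and Scg2 by Krt7 (0.976) and Gpx2 (0.976). Chga was most like Ap3b2 (0.993), Rundc3a (0.986) and Reep6 (0.977), and Scg3 most like Sncb (0.990), Syt13 (0.990) and Krt7 (0.984). Scg5 was most like Myt1l (0.996), Camk2b (0.994) and Pcsk2 (0.991), whose product the protein of Scg5 binds. Pcsk1n was most like Myt1l (0.989), Tm4sf4 (0.987) and Scg5 (0.987), and Vgf less closely like Esrp1 (0.9499), Tmem163 (0.947) and Tmem56 (0.945).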

How the data were processed

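The deposited values are UMI counts per gene and barcode; every value was a whole number, and no barcode held under 500 UMIs. Cell Ranger and build mm10 are named in the submitters' processing notes. Barcodes were assigned by the suffix given in the labels. Barcodes with fewer than 500 genes or more than 20% mitochondrial UMIs were dropped, and so were doublets by Scrublet (expected rate 0.06). Cells were clustered in scanpy 1.11.5 (2000 variable genes, granins left out, 30 components, 15 neighbours, leidenalg 0.10.2 at resolution 0.5). The marker score needed for a class name was set after seeing the clusters.

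UMIs were summed per class and library. CPM values carry exact Poisson 95% intervals, and ratios carry exact conditional binomial (Clopper-Pearson) 95% intervals, both for counting error only. No p-value was computed. Genes needed 50 UMIs in both libraries together, and differences were counted at 1.5-fold. The code was tested on simulated data. All 7 members were named, with the 3 highest and 3 lowest genes of the granule list and the 3 genes most like each member. The members and lists were chosen with earlier results of these data known. Python 3.11.15, numpy 2.4.6, scipy 1.17.1 and matplotlib 3.10.9 were used.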

Additional observations from a re-analysis of the deposited data

Results flagged for a closer look

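For several members the ratio had opposite signs in different cell classes, with intervals for counting error that excluded 0 on both sides. With 1 library a group the difference between classes was not tested, and no direction has a replicate.

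For S961 over control, Chga had a log2 ratio of 0.34 in beta-like cells, −0.19 in alpha-like cells and −0.082 in delta-like cells. Vgf was at 0.61 in alpha-like cells and −1.41 in delta-like cells.

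For recovered over S961, Chga was at −0.046 in beta-like, 0.35 in alpha-like and 0.29 in delta-like cells. The beta-like Chga ratio ranged from −0.12 to 0.02 across the alternative settings. Vgf was at −0.32 in beta-like and −0.45 in alpha-like cells, against 0.76 in delta-like cells. This delta-like direction was not kept: it was −2.06, −0.0089 and −0.86 under 3 alternative settings. The −2.06 rests on 2 Vgf UMIs in the recovered cells. Pcsk1n was at −0.22 in beta-like, 0.16 in alpha-like and −0.34 in delta-like cells.

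For recovered over control, Chgb was at 0.054 in beta-like, −0.14 in alpha-like and 0.093 in delta-like cells. Across the alternative settings these ratios ranged from −0.06 to 0.13, −0.31 to 0.33 and −0.04 to 0.33, so Chgb kept its sign in no class. Scg2 was at 0.073, −0.31 and 0.15 in the same classes. Its alpha-like ratio ranged from −0.39 to 0.15, while the beta-like and delta-like ratios stayed positive. In delta-like cells with Sst as the highest hormone the Chga ratios were 0.23 for S961 over control and −0.02 for recovered over S961, so neither Chga ratio kept its sign.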

How the results depend on the processing

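No paired analysis was possible because each group had 1 library. Among the 16 alternatives tried, the lower fold limit and the lower UMI minimum could not move a ratio. Leaving out the cluster led by heat shock genes applied to beta-like cells only. Of 63 ratios, 9 passed 1.5-fold and 8 of these kept their sign under all 16 alternatives. The exception was Vgf in recovered over S961 delta-like cells. There it was −2.06 (−5.16 to −0.11) with at least 80% of hormone UMIs from Sst, from 2 Vgf UMIs in 62 recovered cells. It was −0.0089 as the mean of the CPM of each cell, and −0.86 with Sst highest, an alternative chosen after seeing the data. Of 372 recounted numbers of members past the fold, 320 stayed within 1.5 times. The median of all genes in S961 over control moved by over 0.1 under 2 settings, to −0.12 against −0.02 in beta-like cells with the mean of the CPM of each cell, and to −0.0029 against 0.0997 in delta-like cells with the total without hormones and mitochondrial genes. Depth limits Vgf most.

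With 80% hormone purity the delta-like count of granins higher in recovered over S961 was 0, that of lower ones 1, alpha-like S961 over control higher 0 and alpha-like recovered over S961 lower 1. All 4 were the same with the hormone of the class highest, and delta-like S961 over control higher was then 0. With classes from hormones alone, alpha-like S961 over control higher was 0, alpha-like recovered over S961 lower 1, delta-like recovered over S961 higher 0, delta-like recovered over control lower 0 and higher 3, and these 5 were the same without a mitochondrial maximum; 2 and 3 partner genes were higher in S961 over control beta-like cells in these settings. The delta-like S961 over control count of 1 higher was 0 with 4 to 7% mitochondrial UMIs, other endocrine RNA taken off, thinned cells, doublets kept, mean cell CPM, the median of all genes set to 0, or the total without hormones. Alpha-like S961 over control higher was 0 with granins kept in the clustering and in the last 3 of these. Delta-like recovered over control lower was 0 with 4 to 7% or at most 10% mitochondrial UMIs. Delta-like recovered over S961 higher was 0 with other RNA taken off and with mean cell CPM. Partner genes lower in S961 over control were 1 with 4 to 7% mitochondrial UMIs and 4 with thinned cells or mean cell CPM, where 1 was lower in recovered over S961; 3 were higher in S961 over control without the stress-led cluster. At the lower fold limit tried, a log2 ratio of 0.32, granins higher in S961 over control were 6 of 7 in beta-like cells (1741 of 11607 genes) and 3 of 7 in delta-like cells (24.5% of genes). Of 29 partner genes 4 were higher (1741 genes) and 6 lower (12.2%). In beta-like recovered over control 1 granin was lower (4.4%), 1 partner higher (11.2%) and 1 lower (4.4%). In recovered over S961 1 granin was higher (11.4%) and 2 lower (14.4%) in alpha-like cells, and 2 were lower in delta-like cells (19.5%).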

Other observations

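A pair of clusters kept out of every class, because a processed pseudogene stood among their 20 leading genes, had granin mixes of their own. The first, led by Msln, Trh and Ftl1-ps1, had insulin as 54.0% of its UMIs in S961, 56.8% in recovered and 56.7% in control (213, 276 and 218 cells). Its Chga level was 750, 587 and 734 CPM, against 5311, 5145 and 4209 CPM in beta-like cells. Its Scg5 level was 2045, 2128 and 2195 CPM, against 1200, 864 and 849 CPM in beta-like cells. Chgb was at 667, 773 and 729 CPM there and Scg2 at 3370, 3137 and 3181 CPM, so Chgb was lower and Scg2 slightly higher in S961 than in control there.

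The second, led by Calcb, held 99 S961, 99 recovered and 96 control cells. Its Chgb level was 6954, 4898 and 6640 CPM and its Pcsk1n level 6504, 6626 and 5799 CPM, above the corresponding level of each named endocrine class in the same library. The median mitochondrial share was 1.30% to 1.64% in the first cluster and 1.28% to 1.61% in the second. What these cells are was not tested.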
